A study of Mus musculus with 12 samples.

Results

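The genes described here were 9 mouse genes for neural basic helix-loop-helix (bHLH) transcription factors: Neurod1, Neurod2, Neurod4, Neurod6, Neurog1, Neurog2, Neurog3, Atoh1 and Olig2. They were taken by name from the 22367 protein-coding genes (37273 annotated genes in all) of GENCODE M1 on the mouse build mm9, and all 9 names matched. The genes were picked by name and not by a measured value, although earlier results of these data were known. For each gene, the bases lying under called H3K27me3 peaks were counted within 2500 bp of the transcription start site (TSS), a promoter window of 5001 bp, and over the gene body extended by 5 kb on either side. The unit in what follows is the percent of the window under peaks. A percent of covered promoter measures how far a called domain extends and not how strong it is, because the lists hold positions only.

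The study asked how the loss of the H3K27 methyltransferase Ezh2, and its replacement by the paralogue Ezh1, alters H3K27me3 in mouse fibroblasts. All libraries came from C2, 1 clone of immortalized mouse embryonic fibroblasts (iMEFs) transformed with retroviral c-Myc. The clone carried 1 floxed and 1 deleted Ezh2 allele together with Cre-ERT2 at ROSA26. Chromatin was digested with micrococcal nuclease, immunoprecipitated for H3K27me3 and sequenced, and peaks were called in each library separately. Experiment 1 held 2 libraries of cells labelled Ezh2 -/-, in which 4-hydroxytamoxifen had been used to delete Ezh2, and 2 libraries labelled Ezh2 WT/WT, which kept the floxed allele. Experiment 2 held 1 library labelled Ezh1 pre-rescue condition and 1 labelled Ezh2 pre-rescue condition (Ezh1 rescue and Ezh2 rescue, or Ezh1-rescued and Ezh2-rescued cells, below), 2 Ezh2 -/- libraries and 2 Ezh2 WT/WT libraries. In the rescues, Flag-tagged Ezh1 or Ezh2 was stably expressed from a retrovirus before endogenous Ezh2 was deleted. Every group therefore shared the clone, the oncogene and the lack of 1 Ezh2 allele.

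Proneural bHLH factors bind E-box DNA as partners of broadly expressed E proteins and drive neural progenitors towards neuronal fates. Neurogenins and Atoh1 act early in progenitors, NeuroD factors mostly act after them during neuronal differentiation, and Olig2 specifies motor neuron and oligodendrocyte progenitors. In cells outside these lineages many genes of this kind, though not all, are classical targets of Polycomb repressive complex 2 (PRC2). Its catalytic subunit Ezh2 or Ezh1 deposits H3K27me3 over broad domains around CpG-rich promoters.

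The lists differed widely in what they covered. In experiment 1 the peaks covered 24.3 and 56.7 Mb in Ezh2 -/- cells, against 141 and 177 Mb in WT/WT cells. In experiment 2 they covered 256 Mb in Ezh1-rescued cells, 80.6 Mb in Ezh2-rescued cells, 0.0589 and 0.481 Mb (29 and 382 peaks) in Ezh2 -/- cells, and 14.9 and 11.3 Mb in WT/WT cells. The experiments used different antibodies, sequencers and read lengths, so differences between them cannot be told apart from these changes, and WT/WT values of the 2 experiments are set side by side only. Groups of 2 libraries cannot give a two-sided exact permutation p below 0.33. Nothing in the labels says that libraries of a group came from separate cultures, so the spread given may be technical. Peak positions measure no RNA, so neither the fibroblast label nor the loss of Ezh2 could be checked against expression here.

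In experiment 1, 5 of the 9 promoters carried a peak in both WT/WT libraries: the 3 neurogenins, Neurod2 and Olig2. Over all protein-coding genes the share was 20.1%. Genes with at least 1 bp of the promoter under a peak are called marked in what follows. The same 5 promoters were covered less in both Ezh2 -/- libraries than in both WT/WT libraries, against a background of 19.6%, and none of the 9 was covered more in both Ezh2 -/- libraries (background 3.76%). In Ezh2 -/- cells, 4 of the 5 had no promoter peak at all, which was also the usual outcome among the genes that carried a peak in both WT/WT libraries (92.4%). The exception was Neurog3. Averaged over the 9 promoters, coverage was 0.522% and 3.73% in Ezh2 -/- libraries and 40.2% and 43.5% in WT/WT libraries, beside means over all genes of 1.01% and 1.80% in Ezh2 -/- libraries and 9.85% and 11% in WT/WT libraries.

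**Figure D1:**
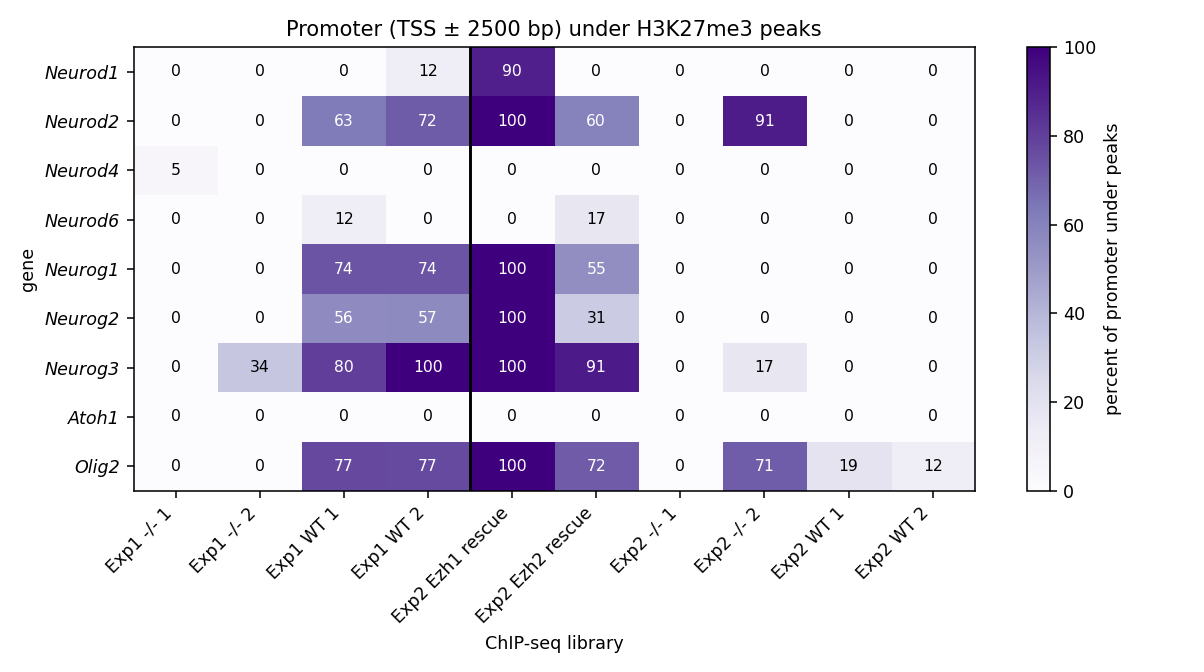
Percent of the promoter (TSS ± 2500 bp) under H3K27me3 peaks, shown as colour and number for each of the 9 genes (rows) in each of the 10 peak lists (columns), with a black line between experiments 1 and 2. The 3 neurogenins, Neurod2 and Olig2 were covered in both experiment 1 WT/WT lists and both rescues, and Atoh1 was at 0 in every list.

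Neurog1 (chr13:56351866-56353524, minus strand) encodes neurogenin 1, a determinant of cranial sensory neurons. Its promoter was 0% covered in both Ezh2 -/- libraries, against 74.1% and 74.0% in the WT/WT libraries. Neurog2 (chr3:127336054-127338549, plus strand), which drives glutamatergic neuron formation in the cortex, was likewise at 0% in both Ezh2 -/- libraries, against 56.1% and 56.8% in the WT/WT libraries. The WT/WT pairs were close, with SDs of 0.127 and 0.467 percentage points (n = 2 each), and the differences were -74.1 and -56.5 percentage points (p = 0.33, exact permutation test, the smallest possible here). Neurog3 (chr10:61595838-61597511, plus strand), the factor that commits pancreatic progenitors to the endocrine fate, had the widest spread of the 3. It stood at 0% and 33.5% in the Ezh2 -/- libraries and at 80.2% and 100% in the WT/WT libraries, a difference of -73.4 percentage points (SE 19.5, exact permutation p = 0.33). Both WT/WT values were above both Ezh2 -/- values. Over the extended gene body the Neurog3 difference was smaller, -41.9 percentage points (SE 29.7, exact permutation p = 0.33), with 0% and 58.6% in the Ezh2 -/- libraries and 66.1% and 76.2% in the WT/WT libraries.

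The second Ezh2 -/- library of experiment 1 thus held the only Ezh2 -/- coverage there of any of the 5 genes. Its 5 peaks covered 6836 bp of the extended Neurog3 gene body, of which 66.0% and 77.9% lay under peaks of the WT/WT libraries, and the first Ezh2 -/- library had none. None of the 5 reached within 500 bp of the TSS. The nearest protein-coding gene on either side also had a promoter peak in the second Ezh2 -/- library (background 8.06%): 1093 bp for 2010107G23Rik, with 0 bp in the other Ezh2 -/- library, and 2155 bp for Col13a1, with 251 bp in the other. Both were covered more in the WT/WT libraries, with 1717 and 2488 bp for 2010107G23Rik and 4364 and 4361 bp for Col13a1.

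Olig2 (chr16:91225795-91228922, plus strand) had the largest difference between Ezh2 -/- and WT/WT cells of the 9 genes in experiment 1. It was 0% covered in both Ezh2 -/- libraries, against 77.1% and 76.7% in the WT/WT libraries, a difference of -76.9 percentage points (exact permutation p = 0.33). Neurod2 (chr11:98186729-98190962, minus strand), a factor of differentiating cortical neurons, was at 0% in both Ezh2 -/- libraries, against 62.5% and 71.9% in the WT/WT libraries (difference -67.2 percentage points, SE 4.68, exact permutation p = 0.33). For both genes, too, the groups did not overlap. The promoter sequences of these 2 genes are given because both return in experiment 2. They run from 250 bases before the TSS to 50 bases from it on, 5′ to 3′ on the strand of the gene, from the mm9 (NCBIM37) genome, with CG dinucleotides in capitals: Neurod2 at chr11:98190913-98191212 (minus strand, 15 CG) and Olig2 at chr16:91225545-91225844 (plus strand, 25 CG).
Neurod2 promoter: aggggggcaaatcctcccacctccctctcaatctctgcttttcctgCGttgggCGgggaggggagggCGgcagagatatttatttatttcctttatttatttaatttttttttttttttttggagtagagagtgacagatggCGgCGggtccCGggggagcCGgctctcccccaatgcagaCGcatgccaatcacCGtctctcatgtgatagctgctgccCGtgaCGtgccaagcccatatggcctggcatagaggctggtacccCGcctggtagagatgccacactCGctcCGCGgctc
Olig2 promoter: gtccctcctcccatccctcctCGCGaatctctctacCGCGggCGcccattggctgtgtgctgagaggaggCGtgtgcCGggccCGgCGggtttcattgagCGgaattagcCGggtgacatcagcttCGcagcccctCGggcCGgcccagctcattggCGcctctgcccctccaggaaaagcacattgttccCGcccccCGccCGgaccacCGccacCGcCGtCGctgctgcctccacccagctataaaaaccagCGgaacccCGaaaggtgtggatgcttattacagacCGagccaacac
A median protein-coding promoter held 11 CG in such a window. Over the 5001-bp window Olig2 held 283 CG, Neurog2 261 and Neurod2 246, more than 98.9%, 98.2% and 97.6% of all protein-coding genes. Neurog1 held 186 and Neurog3 131, against a median of 96. The E-box sequence CANNTG, which reads the same on both strands, occurred 3 times in the 300 bases of Neurod2 and 0 times in those of Olig2, and 69.6% of all promoters of this length held it.

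The WT/WT peaks of experiment 1 left out the middle of most of these genes. In Neurog2 the peaks of the first library ended at position -698 from the TSS and resumed at position 1497, so that the coding sequence, chr3:127336647-127337435, was under no peak in either WT/WT library. The coding sequence of Olig2 (chr16:91226645-91227613) was 0.103% and 0% covered, that of Neurog1 14.3% and 16.8%, and that of Neurod2 (chr11:98188502-98189650) 0% and 34.8%. Coverage of under 50% of the coding sequence in both WT/WT libraries was thus seen in 4 of the 5 marked genes. It was also seen in 67% of the 615 protein-coding genes that had 1 block of coding sequence and a promoter peak in both libraries. That share did not require peaks on both sides of the coding sequence, so it is not a rate of such gaps. Neurog3 was the exception among the 5 in 1 library only: its coding sequence was 0% covered in the first WT/WT library, where the peaks left a gap, and 100% covered in the second. The base that is the TSS itself lay under a peak in both WT/WT libraries for 3 of the 5, Neurod2, Neurog3 and Olig2 (22.3% of the genes marked in both).

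In the 4 promoters with a gap, the bases left out were richer in G and C than the bases covered. Within the Neurod2 promoter, the 1407 bp under no WT/WT peak were 70.0% GC, against 53.8% for the 3126 bp under peaks of both libraries. In Neurog1 the values were 69.2% over 1275 uncovered bp and 50.1% over 3681 covered bp. In Neurog2 they were 65.8% over 2161 uncovered bp and 44.2% over 2807 covered bp, and in Olig2 69.3% over 1130 uncovered bp and 54.1% over 3820 covered bp. CG dinucleotides were also denser there: the uncovered part held 8.93 to 10.7 per 100 bp in these 4 genes, and the covered part 1.82 to 4.19. The Neurog3 promoter had no base free of peaks in both libraries, and its 4013 bp under both were 51.6% GC. Over whole lists, the bases under WT/WT peaks were 45.3% and 44.8% GC in experiment 1 and 47.3% and 48.7% GC in experiment 2, and the genome was 41.8% GC. The same comparison was not made over the other genes marked in both libraries, so whether the contrast is usual there is not known. The part that GC content played in the gaps was not tested.

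**Figure D2:**
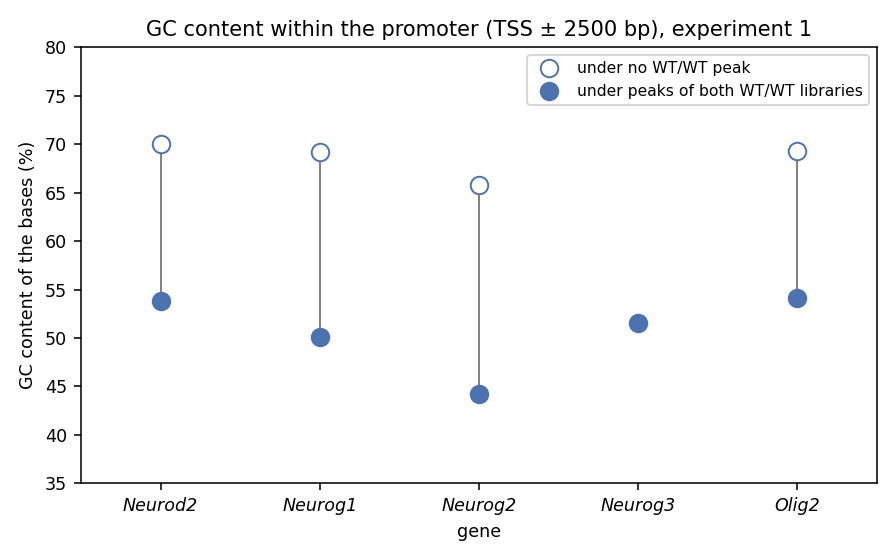
GC content in percent (y axis) of the promoter bases under no experiment 1 WT/WT peak (open circles) and under peaks of both WT/WT libraries (filled circles), for the 5 genes with promoter peaks in both (x axis). Open circles lie between 65.8% and 70.0%, filled circles between 44.2% and 54.1%, and Neurog3 had no uncovered bases.

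The other 4 genes had few or no called peaks in experiment 1. Neurod1 (chr2:79292678-79296908, minus strand), a factor of neuronal and pancreatic endocrine differentiation, had 0% of its promoter under peaks in both Ezh2 -/- libraries, against 0% and 12.3% in the WT/WT libraries. The groups overlapped there. Over its extended gene body it had 0 bp in both Ezh2 -/- libraries, against 1102 and 2707 of 14231 bp in the WT/WT libraries, so 6 of the 9 genes were lower in both Ezh2 -/- libraries on that window (background 29.7%). The TSS of Cerkl lies 34 bp from that of Neurod1, and the promoter values of these neighbours cannot be told apart. Neurod6 (chr6:55627812-55631257, minus strand), expressed in postmitotic cortical neurons, had no promoter peak in either Ezh2 -/- library, against 12.0% and 0% in the WT/WT libraries. That coverage was a single peak of 599 bp.

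Atoh1 (chr6:64679140-64681227, plus strand), which specifies cerebellar granule neurons and inner ear hair cells, had no peak in any of the 10 lists, neither in the promoter nor in the extended gene body of 12088 bp. Its promoter was not poor in CG: the 5001-bp window held 179, more than 88.8% of genes, close to the 186 of Neurog1. Its sequence is given because it is the CG-rich promoter without a peak (chr6:64678890-64679189, plus strand, mm9, CG in capitals, 20 CG).
Atoh1 promoter: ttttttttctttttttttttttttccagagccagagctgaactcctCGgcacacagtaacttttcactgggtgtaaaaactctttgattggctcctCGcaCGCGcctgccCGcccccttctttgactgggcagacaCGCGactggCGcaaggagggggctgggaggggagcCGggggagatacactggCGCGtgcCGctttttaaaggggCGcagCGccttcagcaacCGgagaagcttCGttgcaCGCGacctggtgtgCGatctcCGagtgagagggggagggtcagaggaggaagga
Neurod4 (chr10:129705209-129717296, minus strand), a factor of retinal and other neuronal differentiation, was the only one of the 9 whose gene-body coverage was higher in both Ezh2 -/- libraries of experiment 1. It had 2721 and 361 of 22088 bp of the extended gene body under peaks in the Ezh2 -/- libraries and 0 bp in both WT/WT libraries, an outcome shared by 9.39% of protein-coding genes. At the promoter it had 4.70% and 0% in Ezh2 -/- cells and 0% in both WT/WT libraries. No list of experiment 2 had a Neurod4 peak. Its 5001-bp promoter window held 22 CG, more than only 7.04% of genes, and that of Neurod6 held 65.

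In experiment 2 the WT/WT lists were sparse, and 1 member, Olig2, had a promoter peak in both (background 3.11%). These Olig2 peaks shared 0 bp: the first library had a peak from position 6 to position 955 from the TSS, and the second from position 1856 to position 2455. No promoter of the 9 was lower in both Ezh2 -/- libraries than in both WT/WT libraries (background 3.03%), and none was higher in both (0.0224%). The 2 Ezh2 -/- libraries differed. The first had no promoter peak in any member (0.0402% of all genes had one). The second had a promoter peak in 3 members, Neurod2, Neurog3 and Olig2, among the 84 protein-coding genes (0.376%) with one. All 3 belonged to the 5 genes marked in both WT/WT libraries of experiment 1, and of all genes marked there 1.71% had a promoter peak in this library. The mean difference over the 9 promoters, Ezh2 -/- minus WT/WT, was 8.23 percentage points. It was 18.2 percentage points without the first Ezh2 -/- library and -1.72 percentage points without the second, when Olig2 was the 1 gene lower in Ezh2 -/- cells than in both WT/WT libraries.

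Neurod2 had 0% and 91.0% of its promoter covered in the Ezh2 -/- libraries of experiment 2, against 0% in both WT/WT libraries. The second value was the second highest among those 84 genes. Over the extended gene body, Neurod2 had 3800 and 11522 of 14234 bp under peaks in the Ezh2 -/- libraries, against 922 and 3450 bp in the WT/WT libraries. Both Ezh2 -/- values were above both WT/WT values, which held for 0.0224% of protein-coding genes. The difference was 38.5 percentage points (SE 28.5, exact permutation p = 0.33), where experiment 1 gave -82.8 percentage points on the same window, with 0 bp in both Ezh2 -/- libraries and 11559 and 12012 bp in the WT/WT libraries.

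The first Ezh2 -/- library held 29 peaks in all, and 3 of them lay in the extended Neurod2 gene body, which made Neurod2 the only one of the 9 genes with a peak there (background 0.0849%). The second library had 6 peaks there, of 382. The peaks of the first library lay almost wholly under those of the second. Of the 3800 bp covered in the first library, 3750 bp (98.7%) were also covered in the second, and 100% lay under peaks of both experiment 1 WT/WT libraries and of both rescues. WT/WT peaks of experiment 2 covered 22.4% and 72.4% of them. An upstream piece of 650 bp, chr11:98193801-98194450, was under peaks of both Ezh2 -/- libraries and of neither WT/WT library of experiment 2. It lay 2839 to 3488 bp before the TSS and was 46.2% GC with 6 CG. The central 300 bases of this piece are shown because, of the 3 stretches that both Ezh2 -/- lists hold at Neurod2, it is the one under no WT/WT peak of experiment 2 (chr11:98193976-98194275, minus strand, mm9, CG in capitals, 2 CG).
Neurod2 upstream segment: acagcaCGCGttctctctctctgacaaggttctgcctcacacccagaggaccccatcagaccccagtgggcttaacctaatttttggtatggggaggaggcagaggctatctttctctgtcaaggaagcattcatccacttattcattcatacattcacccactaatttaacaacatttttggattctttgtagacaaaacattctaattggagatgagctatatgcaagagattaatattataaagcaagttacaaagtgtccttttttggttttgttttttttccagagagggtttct

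Olig2 had 0% and 71.1% of its promoter covered in the Ezh2 -/- libraries, against 19.0% and 12.0% in the WT/WT libraries of experiment 2, so that the groups overlapped (exact permutation p = 1). The covered part in the second Ezh2 -/- library was a single peak of 4650 bp, chr16:91222201-91226850, of which 95.6% and 94.8% lay under WT/WT peaks of experiment 1 and 100% under the Ezh1 rescue peak. WT/WT peaks of experiment 2 covered 20.4% and 0% of it. Neurog3 had 0% and 17.0% in the Ezh2 -/- libraries and 0% in both WT/WT libraries, from 1 peak of 850 bp that ran from position -187 to position 662 from the TSS. It did not overlap the Neurog3 peaks of the Ezh2 -/- library of experiment 1. Neurog1, Neurog2, Neurod1, Neurod6 and Atoh1 had no peak in either window in the Ezh2 -/- libraries of either experiment.

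**Figure D3:**
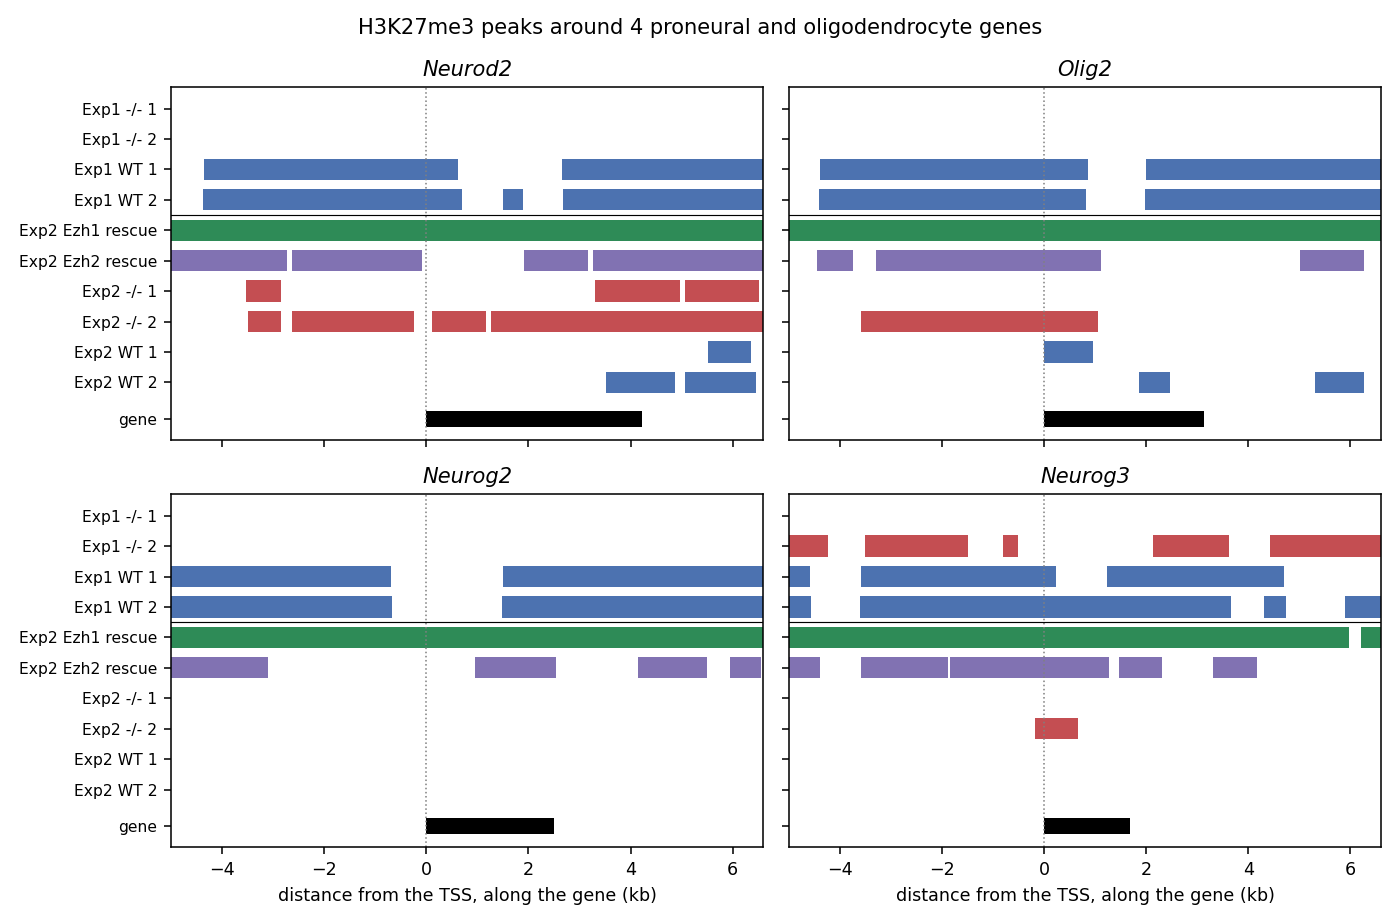
Peaks as bars along each gene, by distance from the TSS in kb (x axis, gene direction to the right), for Neurod2, Olig2, Neurog2 and Neurog3 in the 10 libraries (rows, red Ezh2 -/-, blue WT/WT, green Ezh1 rescue, purple Ezh2 rescue), with the gene in black. Experiment 1 WT/WT peaks leave gaps within Neurod2, Olig2 and Neurog2, the Ezh1 rescue peak spans each gene, and the second Ezh2 -/- library of experiment 2 has peaks at Neurod2, Olig2 and Neurog3.

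In Ezh1-rescued cells 6 of the 9 genes had a promoter peak (background 28.2%), and 5 had the whole promoter under peaks, the same 5 genes that were marked in WT/WT cells of experiment 1 (background 4.56% over all genes and 21.9% of the genes marked there). In Ezh2-rescued cells 6 genes had a promoter peak as well (background 18.8%). All 5 genes marked in WT/WT cells of experiment 1 were among the 6 in either rescue, where 90.8% of all such genes had a peak with Ezh1 and 71.1% with Ezh2. Coverage at the 5 genes was 100% in Ezh1-rescued cells for each. It was 60.0% for Neurod2, 55.0% for Neurog1, 31.1% for Neurog2, 91.2% for Neurog3 and 72.1% for Olig2 in Ezh2-rescued cells. With Neurod1, coverage was higher in Ezh1-rescued cells than in Ezh2-rescued cells for 6 of the 9 (background 26.9%), and it was lower for 1, Neurod6 (2.44%). The mean difference over the 9 promoters was 29.3 percentage points. Each rescue was 1 library, so no replicate error and no test can be given. The paper reports the other direction for the amount of the mark: less H3K27me3 globally, and a weaker distribution across the genome, with Ezh1 than with Ezh2. Covered bases do not measure the amount of H3K27me3, and whether the scaling of the Ezh1 rescue data by immunoprecipitated DNA entered its peak calls is not known, so wider coverage does not show more of the mark.

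The Ezh1 rescue covered each of the 5 genes with a single peak. It spanned 46050 bp at Neurod2 (chr11:98157801-98203850), 37650 bp at Olig2, 25800 bp at Neurog1, 19550 bp at Neurog2 and 13800 bp at Neurog3. The coding sequence was 100% covered in it for all 5 genes (background 41.6% of the 615 genes above), and for Neurod1 as well. In Ezh2-rescued cells the coding sequences were covered to 100% for Neurog3, 55.1% for Neurog2, 47.8% for Neurod2, 26.4% for Olig2, 12.2% for Neurog1 and 0% for Neurod1. The TSS base lay under a peak for all 5 in Ezh1-rescued cells (60% of the genes marked in both experiment 1 WT/WT libraries), and for Neurog3 and Olig2 only, 2 of the 5, in Ezh2-rescued cells (25%).

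Neurod1 and Neurod6 each had peaks in only 1 of the 2 rescue libraries, whose lists covered 256 Mb with Ezh1 and 80.6 Mb with Ezh2. The Neurod1 promoter values cannot be told apart from those of Cerkl, as above. Neurod1 had 89.8% of its promoter under peaks in Ezh1-rescued cells and 0% in Ezh2-rescued cells, and over the extended gene body it had 11050 bp in Ezh1-rescued cells and 0 bp in Ezh2-rescued cells, with 0% in the Ezh2 -/- and WT/WT libraries of experiment 2. Neurod6 had no peak in Ezh1-rescued cells and 1 peak of 850 bp in Ezh2-rescued cells, which held the whole 599-bp peak of the first experiment 1 WT/WT library within it.

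Set against the 2 WT/WT libraries of their own experiment, 6 members were covered more in Ezh1-rescued cells than in both (background 27.9%), and 6 were covered more in Ezh2-rescued cells than in both (background 18%). Set against both Ezh2 -/- libraries, the Ezh1 rescue was higher for 6 (background 28.2%) and the Ezh2 rescue for 5 (background 18.8%), the one left out being Neurod2 with 60.0% in Ezh2-rescued cells and 91.0% in the second Ezh2 -/- library. Mean coverage of the 9 promoters was 65.5% in Ezh1-rescued cells, 36.3% in Ezh2-rescued cells, 0% and 19.9% in Ezh2 -/- cells, and 2.11% and 1.33% in WT/WT cells. The means over all genes in the same order were 16.2%, 6.74%, 0.0107%, 0.103%, 1.31% and 1.12%. The higher coverage in the rescues than in WT/WT cells thus stood beside a wider covered genome, and the part that this played was not tested.

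The neighbours of the marked genes gave a mixed picture. Olig1, whose TSS lies 44219 bp from that of Olig2, had 0 bp under promoter peaks in both Ezh2 -/- libraries and 3011 and 3664 bp in the WT/WT libraries of experiment 1. In experiment 2 it had 5001 bp in Ezh1-rescued cells, 2337 bp in Ezh2-rescued cells, 0 and 2864 bp in Ezh2 -/- cells, and 0 and 750 bp in WT/WT cells. It was thus covered in the same Ezh2 -/- library as Olig2. Gm9881, on the other side of Olig2, had 0 bp in that library and in Ezh2-rescued cells. It had 4601 and 4441 bp in the WT/WT libraries of experiment 1. Cxcl14, next to Neurog1, kept 1374 and 2146 bp in the Ezh2 -/- libraries of experiment 1, against 4019 and 4212 bp in the WT/WT libraries. Tifab, on the other side of Neurog1, had 0 bp in both of these Ezh2 -/- libraries, against 2364 and 3119 bp in the WT/WT libraries. Cdk12, next to Neurod2, had 367 and 670 bp in those Ezh2 -/- libraries and 0 bp in both WT/WT libraries. Ppp1r1b, 18756 bp from Neurod2, had no promoter peak in any Ezh2 -/- library and had 2700 and 1250 bp in WT/WT libraries of experiment 2, where the Neurod2 promoter had none. The 2 nearest neighbours of Neurog2, 4930422G04Rik and Alpk1, had no promoter peak in any list.

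Other genes of the neurogenic programme were counted from a list of 44, chosen with earlier results of these data known. The list was made up of E protein partners, inhibitors, other neural bHLH genes, Notch pathway genes and downstream neuronal regulators. In experiment 1, 28 of the 44 were lower in both Ezh2 -/- than in both WT/WT libraries (background 19.6%). Another 2 were higher in both (background 3.76%). By group, the lower genes were 0 of 3 E protein partners, which are broadly expressed, and 4 of 8 inhibitors of bHLH factors. They were also 8 of 10 other neural bHLH genes, 4 of 7 Notch pathway genes and 12 of 16 downstream regulators. The same background of 19.6% applies to each group, and groups this small were not tested. The median promoter coverage in WT/WT cells was 56.5% for the 9 genes, 32.0% for the 44, and 0% over all protein-coding genes. In experiment 2, 32 of the 44 had a promoter peak in Ezh1-rescued cells (background 28.2%) and 24 in Ezh2-rescued cells (18.8%). In the Ezh2 -/- libraries 0 and 2 had one (0.0402% and 0.376%), and 1 had one in both WT/WT libraries (3.11%). The 2 genes in the second Ezh2 -/- library were Olig1 and Insm1, a zinc-finger regulator of neuroendocrine differentiation. The 1 gene with a peak in every WT/WT library was Mnx1, a motor neuron homeobox gene. Its promoter had 0% in both Ezh2 -/- libraries and a mean of 74.6% in WT/WT libraries of experiment 1, and in experiment 2 it had 5001 bp in Ezh1-rescued cells, 3692 bp in Ezh2-rescued cells, 0 bp in both Ezh2 -/- libraries and 2000 and 1250 bp in WT/WT libraries.

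**Figure D4:**
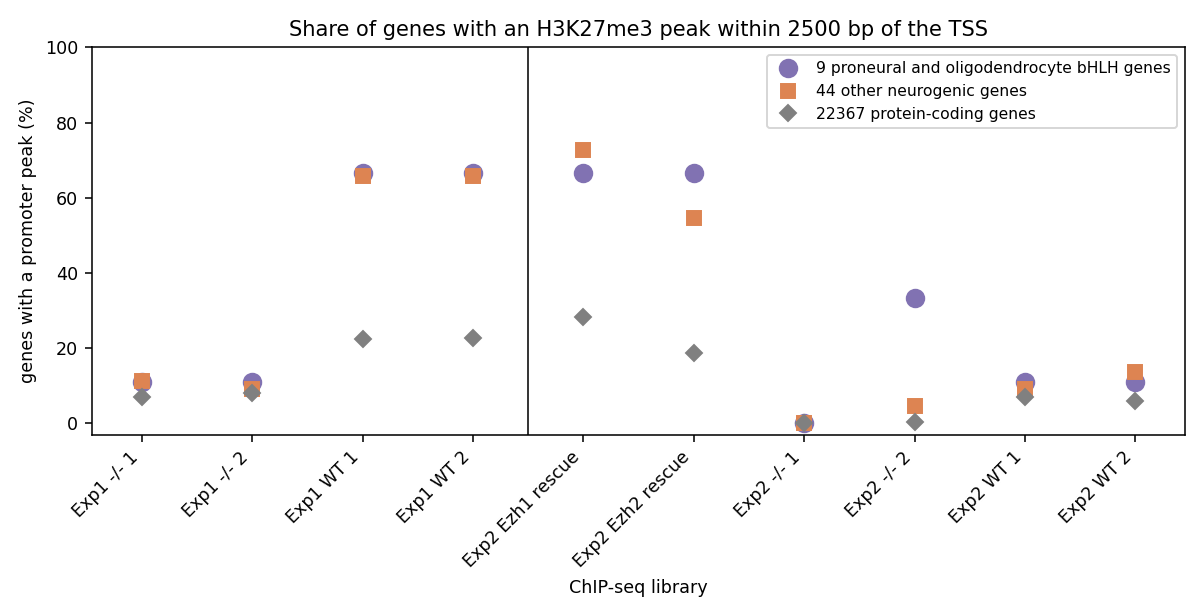
Percent of genes whose promoter window held at least 1 H3K27me3 peak (y axis) in each of the 10 libraries (x axis), for the 9 bHLH genes (circles), the 44 other neurogenic genes (squares) and all 22367 protein-coding genes (diamonds). In the second Ezh2 -/- library of experiment 2, 3 of the 9 bHLH genes and 2 of the 44 other genes had a peak, with 0.376% of all genes.

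Across the 10 libraries, the protein-coding genes whose promoter coverage was most like the mean profile of the 9 genes were Insm1, at a mean absolute difference of 3.12 percentage points, Ecscr (3.49), Adcy5 (3.72), 8430427H17Rik (3.79) and Kcng3 (4.09). Of these, Insm1 alone had a peak in an Ezh2 -/- library, with 11% of its promoter in the second library of experiment 2. The other 4 were at 0% in every Ezh2 -/- library and in both WT/WT libraries of experiment 2. The mean profile was that of no single member. In the WT/WT libraries of experiment 1 it stood at 40.2% and 43.5%, while each of the 9 genes was at 56.1% or more or at 12.3% or less.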

How the data were processed

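H3K27me3 ChIP-seq of C2 iMEFs was described by 10 peak lists, each from 1 library, and 2 input samples were not analysed here. Per the study's methods and the submitters' processing notes, the authors aligned reads to mm9 with Bowtie 0.12.8 (experiment 1, 75-bp reads) or Bowtie2 2.1.0 (experiment 2, 100-bp reads), removed duplicates, reduced libraries to a common read number and called peaks per library against input with MACS2 2.0.10. Ezh2 -/- and Ezh1 rescue data were scaled by the amount of immunoprecipitated DNA, and the sources used here do not say whether that scaling entered the peak calls. The deposited lists hold coordinates only, with no height, score or p-value, so read depth at a peak is unknown, and a base without a peak is not a base without H3K27me3.

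Peaks of a library were merged, and the bases under them were counted in the promoter window (5001 bp) and the extended gene body of GENCODE M1 genes, with Python 3.11.15, NumPy 2.4.6, SciPy 1.17.1 and pandas 2.3.3. A gene was called marked at 1 bp or more. The counting was tested on simulated data (6000 windows, 0 mismatches). Means, SDs and exact two-sided permutation tests compared Ezh2 -/- with WT/WT within each experiment (2 libraries each), and the same quantities over all 22367 protein-coding genes gave the background. Promoter sequences and GC content were read from the mm9 (NCBIM37) genome. Genes named were the 9 genes, the nearest protein-coding gene on either side, the 5 most similar promoter profiles, and listed neurogenic genes with a peak in every WT/WT library or in Ezh2 -/- libraries of both experiments. Olig1 was named as a neighbour and Insm1 for its profile. Alternatives were other window sizes, the gene body, wider or joined peaks, a minimum covered share, all annotated genes as background, leaving out each library, and a replicate block. The 9 genes and the gene lists were chosen with earlier results of these data known.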

Additional observations from a re-analysis of the deposited data

Results flagged for a closer look

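Over its extended gene body, Neurod2 differed in opposite directions in the 2 experiments. Coverage there was 53.8% ± 38.4 in Ezh2 -/- cells and 15.4% ± 12.6 in WT/WT cells of experiment 2 (SD, n = 2 each), a difference of 38.5 percentage points. Both Ezh2 -/- libraries were above both WT/WT libraries, the closest values being 3800 and 3450 of 14234 bp. In experiment 1 it was 0% in both Ezh2 -/- libraries and 82.8% ± 2.25 in WT/WT cells, a difference of -82.8 percentage points. At the promoter the experiment 2 groups overlapped, with 0% and 91.0% in the Ezh2 -/- libraries and 0% in both WT/WT libraries. The difference between the experiments was not tested, and experiment cannot be told apart from antibody, sequencer and read length.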

How the results depend on the processing

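Of 90 alternative values, 1 reversed, 12 moved and 77 did neither. Moved means by at least the spread between libraries, by over 1.5 times for counts, or by any amount for values without replicates. That spread was the square root of the summed variances of the library means in the 2 groups. It was 3.24 percentage points in experiment 1 and 14.1 in experiment 2. The reversed one was the mean promoter difference over the 9 genes in experiment 2, Ezh2 -/- minus WT/WT, of 8.23 percentage points, which was -1.72 without the second Ezh2 -/- library and ranged from -1.72 to 18.2 when each library was left out in turn. It was 5.11 over the gene body, and 5.11 and 18.2 count among the 77 because the spread between libraries was wide. The same mean in experiment 1 was -39.7 percentage points, with -35.6 at TSS ± 1000 bp, -43.2 over the gene body, and -41.4 to -38.1 with each library left out. The count of genes marked in both WT/WT libraries of experiment 2, 1 as reported, was 0 at ± 1000 bp, 2 over the gene body and 0 with peaks of at least 1000 bp. Genes lower in both Ezh2 -/- libraries numbered 5 in experiment 1 (5 to 6 with a library left out) and 0 in experiment 2 (0 to 1). The mean Ezh1 minus Ezh2 rescue difference of 29.3 was 28.0 at ± 1000 bp, 29.25 at ± 5000 bp, 28.5 over the gene body, 34.7 with peaks of at least 1000 bp and 27.7 with peaks under 1000 bp apart joined. A minimum peak width of 550 bp for experiment 1, chosen after seeing the data and run for that experiment only, left its 3 counts at 5, 5 and 4.

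For libraries with the same replicate number, the correlation of deviations over genes was 0.0332 in experiment 1 and -0.0277 in experiment 2. Most genes had no promoter peak in these lists, so low correlations cannot show that such libraries were unrelated. With a replicate block the counts of 5 and 0 lower genes were the same. The mean differences of -39.7 and 8.23 percentage points cannot change with a block when groups are balanced. Their place among the 77 is therefore no test of pairing. With 2 libraries a group and positions only, no comparison could pass a threshold, and the lists do not show how strong any domain was.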
